A study of Mus musculus with 6 samples.

Results

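Cadherins are calcium-dependent adhesion proteins that join neighbouring cells by binding the same or a related cadherin on the next cell. Classical cadherins reach through the membrane and hold actin by way of catenins, and they are divided into type I, with Cdh1, Cdh2, Cdh3 and Cdh4 here, and type II, with Cdh5, Cdh6, Cdh8, Cdh11 and Cdh18. Cdh13 (T-cadherin) was counted with them although it has no cytoplasmic tail and is held in the membrane by a lipid anchor. Mesenchymal cells such as fibroblasts are known for Cdh2 and Cdh11, epithelia for Cdh1 and Cdh3, and endothelium for Cdh5.

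Accessible chromatin at these 10 genes was followed by ATAC-seq, which tags DNA that the Tn5 transposase can reach. The cells were cultured mouse dermal fibroblasts, either lacking Lap2alpha (Lap2alpha KO, 3 libraries) or wildtype (WT, 3 libraries), and the labels name no agent or other allele in either group. Lap2alpha is a nucleoplasmic splice form of the Tmpo gene that binds A-type lamins. Strain, age, the way the allele was made and the animals or cultures behind each library were not given by the labels. A peak was taken as a member if its summit lay in the RefSeq GRCm38.p6 span of a gene or within 50 kb of either end. This gave 122 of 98072 KO peaks and 153 of 106132 WT peaks, and 6 KO and 7 WT peaks lay in the windows of both Cdh1 and Cdh3. The genes were chosen by their numbers of KO-only and WT-only peaks in these same lists, so all values below are descriptions. At the edge of the window, the farthest summits counted were 48140 bp (KO) and 48170 bp (WT) from Cdh1, at signal percentiles of 89.7 and 91.0, and the nearest left out were 50492 bp (KO) and 50478 bp (WT) from Cdh5, at 67.2 and 65.3.

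Each genotype has 1 list combined over its libraries, so there was no replicate spread and no test between genotypes. Read depth is unknown, and a peak missing from a list may lie just under its threshold. The signal percentile gives the share of peaks of the same list with a signal at or below that of the peak. Percentiles of lists of different length are set side by side and show no change in accessibility. Of the fibroblast markers, 9 of 10 had a peak within 1 kb of a gene end in both lists (Col1a1, Pdgfra and Vim among them), against 2 of 10 epithelial, 1 of 8 endothelial, 4 of 6 Schwann cell, 2 of 5 leukocyte and 0 of 5 skeletal muscle markers, and 56.1% of all protein-coding genes. The strongest gene-end peak of Tmpo stood at percentile 98.8 in KO and 99.0 in WT, which does not check the loss of 1 splice form.

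RefSeq sequence before the annotated start was at hand for 3 of the genes, all type II. They are shown because the start of Cdh18 was under a peak in both lists, whereas those of Cdh8 and Cdh6 were under none. The Cdh18 start shown lies far inside the gene span, not at its lower end. Over all annotated starts in RefSeq, 39.6% lay under a KO peak and 40.7% under a WT peak, 0.813% under a KO peak alone and 1.84% under a WT peak alone. Each line gives the 250 bases before the start, 5′ to 3′ on the strand of the gene, in GRCm38.p6. Capitals mark the 166 bases covered by the KO peak at Cdh18, all 250 of which lay under the WT peak, and in Cdh8 and Cdh6 the match to the general E-box CANNTG.
Cdh18, chr15:23036213-23036462, plus strand: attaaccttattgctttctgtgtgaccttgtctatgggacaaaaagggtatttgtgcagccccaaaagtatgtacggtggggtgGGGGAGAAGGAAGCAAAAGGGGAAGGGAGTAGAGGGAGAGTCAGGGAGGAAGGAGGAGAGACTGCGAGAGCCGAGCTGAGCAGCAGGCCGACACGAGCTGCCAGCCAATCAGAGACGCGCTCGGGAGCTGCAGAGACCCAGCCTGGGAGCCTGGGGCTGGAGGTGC
Cdh8, chr8:99416472-99416721, minus strand: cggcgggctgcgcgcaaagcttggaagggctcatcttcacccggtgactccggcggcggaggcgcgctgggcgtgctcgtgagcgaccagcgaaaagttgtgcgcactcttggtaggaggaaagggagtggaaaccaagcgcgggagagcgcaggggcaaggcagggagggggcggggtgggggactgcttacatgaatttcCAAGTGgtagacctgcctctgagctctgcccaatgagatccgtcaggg
Cdh6, chr15:13173676-13173925, minus strand: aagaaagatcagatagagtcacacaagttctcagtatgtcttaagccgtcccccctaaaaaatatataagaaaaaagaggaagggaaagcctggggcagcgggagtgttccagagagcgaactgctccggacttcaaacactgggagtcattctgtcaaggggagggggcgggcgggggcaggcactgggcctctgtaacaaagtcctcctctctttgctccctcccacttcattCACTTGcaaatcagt

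The closed start of Cdh8 was the richest of the 3 in G and C. It held 64.4% GC and 20 CG dinucleotides, against 58.0% and 8 in Cdh18 and 51.2% and 6 in Cdh6. Over the 32851 annotated starts of the same length, those under a peak in both lists had a median of 60.4% GC and 16 CG, and those under none 48.0% and 3. Of starts with at least 20 CG, 82.6% lay under a KO peak and 83.1% under a WT peak, so Cdh8 belonged to the minority. Searched on both strands, the Snail and Zeb E-box CACCTG, the AP-1 motif TGANTCA, the TEAD motif CATTCC and the TATA box TATAAA had 0 matches in all 3 sequences. These motifs were found in 17.2%, 6.75%, 12.6% and 12.4% of all starts. The general E-box CANNTG, which includes every CACCTG, was found in 66.2% of starts, with 1 match each in Cdh8 and Cdh6 and 0 in Cdh18. The missing matches say only that these letters do not occur in the windows shown.

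Over all 10 genes, 22 KO peaks had no overlapping WT peak (18.03%, with a background of 13.4% over all KO peaks), and 52 WT peaks had no overlapping KO peak (34.0%, with a background of 20.4% over all WT peaks). The WT-only share rested on Cdh18: without it, 20 of 113 WT peaks (17.7%) lacked a partner, while 22 of 114 KO peaks (19.3%) did. The KO-only share rested on Cdh11 in the same way, with 15 of 113 KO peaks (13.3%) left when that gene was taken out. More KO-only than WT-only peaks were found at Cdh11, Cdh13 and Cdh2 (over all protein-coding genes, 22.9% had such an excess), and more WT-only peaks at Cdh18, Cdh1, Cdh3, Cdh5 and Cdh6 (46.6% of all genes), with equal numbers at Cdh4 and Cdh8. A peak lay within 1 kb of a gene end in both lists at Cdh11, Cdh2 and Cdh5 (56.1% of all genes) and in WT alone at Cdh18 and Cdh3 (2.47%). It did so in KO alone at none (1.31%), and in neither list at Cdh13, Cdh1, Cdh4, Cdh6 and Cdh8 (40.2%).

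**Figure D1:**
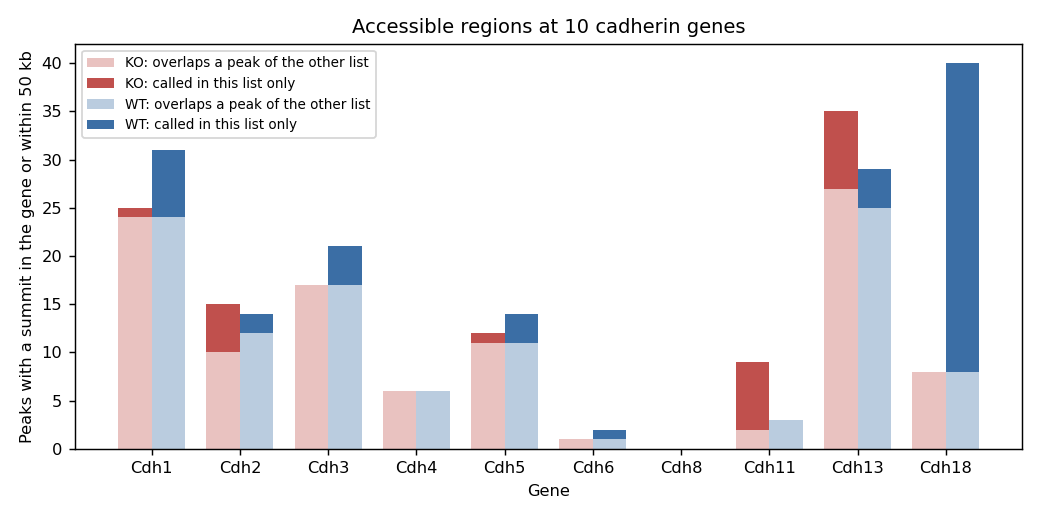
Number of peaks (y axis) with a summit in each cadherin gene or within 50 kb (x axis) in the KO list (left bar, red) and the WT list (right bar, blue). Pale parts overlap a peak of the other list and dark parts do not. The dark part is largest at Cdh18 in WT, with 32 of 40 peaks, and at Cdh11 7 of 9 KO peaks are dark.

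Cdh18 had far fewer peaks in KO. The gene, a type II cadherin best known from the nervous system, spans 928594 bp on chromosome 15, from 22548898 to 23477491. In KO 8 peaks covered 3718 bp, against 40 peaks and 17574 bp in WT. All 8 KO peaks overlapped a WT peak, and 32 WT peaks had no KO partner. In bulk chromatin, a region open in fewer cells and one less open in every cell cannot be told apart. The difference of -32 (KO-only minus WT-only peaks) was the most negative of all 21887 protein-coding genes, Cdh18 itself being the only gene (0.00457%) at or below it. Long genes can hold more peaks. Among the 227 genes of at least 500 kb it was again the only one (0.441%). The count over all genes already fixed this, so it does not check the part of gene length. The difference was -17 with lists of equal length and -21 with a stricter summit threshold. As a share, 4 of 2457 genes with at least 20 WT peaks (0.163%) had as high a part of them without a partner.

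The strongest WT peak of the gene, from 23035487 to 23037139 at percentile 91.8, covered the start whose sequence is shown above. The KO peak there ran from 23036297 to 23036708 at percentile 38.3. It was 412 bp wide, against 1653 bp in WT, and the summits lay 36 bp (KO) and 7 bp (WT) from the annotated first base. This start was thus called accessible in both genotypes, with a much narrower peak in KO. It lies inside the gene span, the KO summit being 487.5 kb from the lower end. The next highest WT peaks were shared too. The highest KO peak, from 22732860 to 22733597, stood at percentile 74.0 in KO and 84.5 in WT, with its summit at 22733274 in both. A region near the upper end stood at 62.7 in KO and 86.5 in WT, with summits at 23452384 in both. In each of the 8 shared pairs the KO percentile was below the WT one (59.3% of 75840 pairs of the whole lists), and 7 of the 8 KO peaks were narrower (52.4% of those pairs).

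The 32 WT-only peaks were spread over the whole gene, with 9, 4, 9 and 9 in successive stretches of 232 kb and 1 outside it. Their median percentile was 32.8, against 75.2 for the WT peaks with a partner. The strongest lay from 23419692 to 23420477 at percentile 72.6, from 23046222 to 23046707 at 68.0 and from 23105048 to 23105376 at 64.3. A weak WT-only peak at the lower gene end, from 22549191 to 22549721, stood at percentile 1.49. The WT call at that gene end rested on this peak alone. For this plus-strand gene the lower end is the 5′ end of the span, and KO had no peak within 1 kb of it. Counting upper 50% peaks by signal, the difference at Cdh18 was -6, and 0.0366% of all genes were at or below the value.

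**Figure D2:**
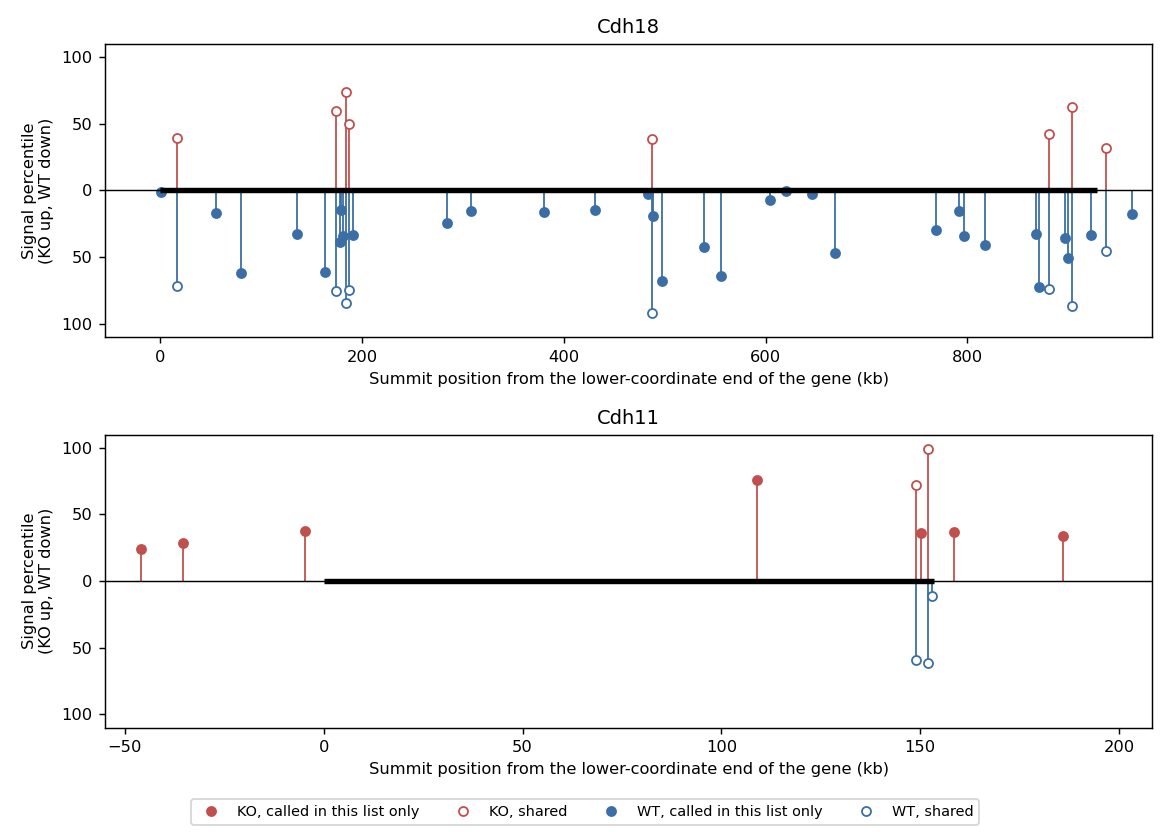
Signal percentile (y axis, KO upward and WT downward) of each peak by its summit position in kb from the lower-coordinate end of Cdh18 (top) and Cdh11 (bottom); the black bar is the gene, filled circles are peaks of 1 list only and open circles are shared. In Cdh18 all 8 KO peaks are open circles among 32 filled WT circles, and in Cdh11 7 filled KO circles stand with none in WT.

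Cdh11 (OB-cadherin), a type II cadherin of mesenchymal cells, went the other way. In KO 9 peaks covered 7462 bp, against 3 peaks and 1625 bp in WT. Both lists had accessible chromatin at the upper end of the gene, which lies on chromosome 8 from 102632095 to 102785493. There KO had 1 broad peak from 102782606 to 102786182, 3577 bp wide at percentile 99.4. It covered 2 WT peaks, from 102783758 to 102784540 at percentile 61.9 and from 102784802 to 102785263 at 11.0. The KO peak was the highest-ranked of any at the 10 genes, and the WT peaks were in the middle and the lowest part of their list. A neighbouring shared peak had its summit at 102781118 in KO and 102781121 in WT. It was 922 bp wide at percentile 72.4 in KO and 380 bp wide at percentile 59.1 in WT.

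The other 7 KO peaks at Cdh11 had no WT partner, and 0 WT peaks lacked a KO partner. The strongest lay inside the gene from 102740841 to 102741766, 926 bp wide at percentile 76.2. The next lay from 102627225 to 102627577 at 37.2 and from 102790220 to 102790600 at 36.5. The others stood at percentiles down to 23.7, and 5 of the 7 lay outside the gene. A difference of at least 7 was found at 147 genes (0.672%), and 7 or more KO-only peaks without any WT-only peak at 89 (0.407%). Among upper 50% peaks by signal 1 KO-only peak was left, and 4.94% of all genes had a difference at least that large. Within the gene span alone the difference was 2, which 3.75% of all genes reached.

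The differences at both genes went on into the surrounding DNA. No other protein-coding gene lay within 1 Mb of the Cdh11 window, and there KO had 47 and WT 22 peaks, of which 25 were KO-only and 0 WT-only. Around Cdh18, where Cdh12 was the only protein-coding gene beyond the window, KO had 17 and WT 60 peaks, of which 0 were KO-only and 43 WT-only. In bins of 250 kb, and with the limits chosen after seeing the counts, a stretch of 3.25 Mb around Cdh18 held 27 KO and 104 WT peaks with 0 KO-only peaks. In the 0.75 Mb at the upper edge of the 24 bins around Cdh18, KO had 75 and WT 62 peaks. A stretch of 1.5 Mb from just below Cdh11 held 60 KO and 28 WT peaks with 0 WT-only peaks, and the next 1.75 Mb held 150 KO and 172 WT peaks. The differences at the 2 genes and those of the stretches around them cannot be told apart.

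**Figure D3:**
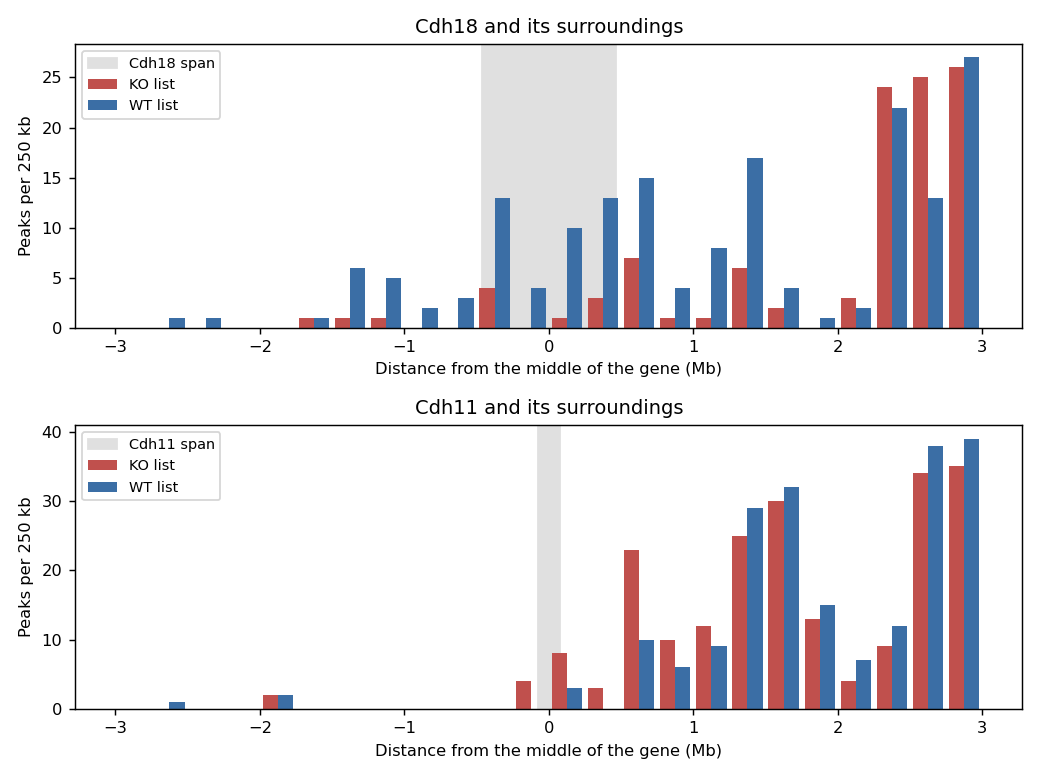
Number of peaks per 250 kb (y axis) in the KO list (red, left) and the WT list (blue, right) by distance in Mb from the middle of Cdh18 (top) and Cdh11 (bottom), with the gene span shaded. Around Cdh18 WT is higher in 17 of 24 bins and KO in 3, and around Cdh11 KO is higher in 6 bins, those of the 1.5 Mb stretch, and WT in 8.

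Cdh2 (N-cadherin), the type I cadherin of mesenchymal and neural cells, was strongly accessible in both genotypes. Its upper gene end on chromosome 18 lay under the highest peak of the gene, which ran from 16806816 to 16810051 at percentile 98.3 in KO and from 16806656 to 16810041 at 96.9 in WT. The 2 peaks were 3236 bp and 3386 bp wide, while their summits lay 1952 bp apart, the largest such distance among the 94 pairs at the cadherin genes. KO had 15 peaks covering 12591 bp and WT 14 peaks covering 9841 bp. Of these 5 were KO-only and 2 WT-only, all inside the gene, and 6.07% of all genes had a difference of 3 or more. The strongest KO-only peak, from 16703615 to 16704508, stood at percentile 53.2 and the next at 22.0 and 6.37, and the WT-only peaks at 11.1 and 7.89. Beyond the gene end, 1 KO peak from 16815110 to 16816436 at percentile 81.0 overlapped 3 separate WT peaks at percentiles of 32.3, 8.79 and 65.0. In the 10 Mb block around the gene, leaving out its own window, KO had 268 and WT 245 peaks. Within 1 Mb of the window, however, KO had 4 and WT 9 peaks, of which 0 were KO-only and 5 WT-only.

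Cdh13 had most of the peaks inside the gene near its lower end. The gene spans 1184913 bp on chromosome 8, from 118140017 to 119324929, and its first 296 kb held 19 of 30 KO and 14 of 25 WT peaks inside the gene, of which 5 were KO-only and 1 WT-only. Within its window KO had 35 peaks, 8 of them KO-only, and WT had 29, 4 of them WT-only, a difference that 3.39% of all genes reached. The KO-only peaks were the stronger, with a median percentile of 26.9 against 6.71 for the WT-only peaks. The highest of them ran from 118383975 to 118384821 at 71.7, from 118518276 to 118519179 at 63.5 and from 118436824 to 118437111 at 46.9. The 4 WT-only peaks stood at 10.7, 9.92, 3.49 and 1.05. The strongest peak inside the gene was shared, from 118285506 to 118287999 in KO and from 118285533 to 118288005 in WT, at percentile 95.5 in both. A stretch of 311.5 kb inside the gene held 0 summits of either list. Both gene ends lacked a peak in both lists, and the highest WT peak of the window, at 97.3, lay at the neighbouring gene Hsbp1, where KO stood at 94.5. The DNA within 1 Mb of the window went the other way from the gene. There KO had 153 and WT 180 peaks, of which 9 were KO-only and 44 WT-only.

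**Figure D4:**
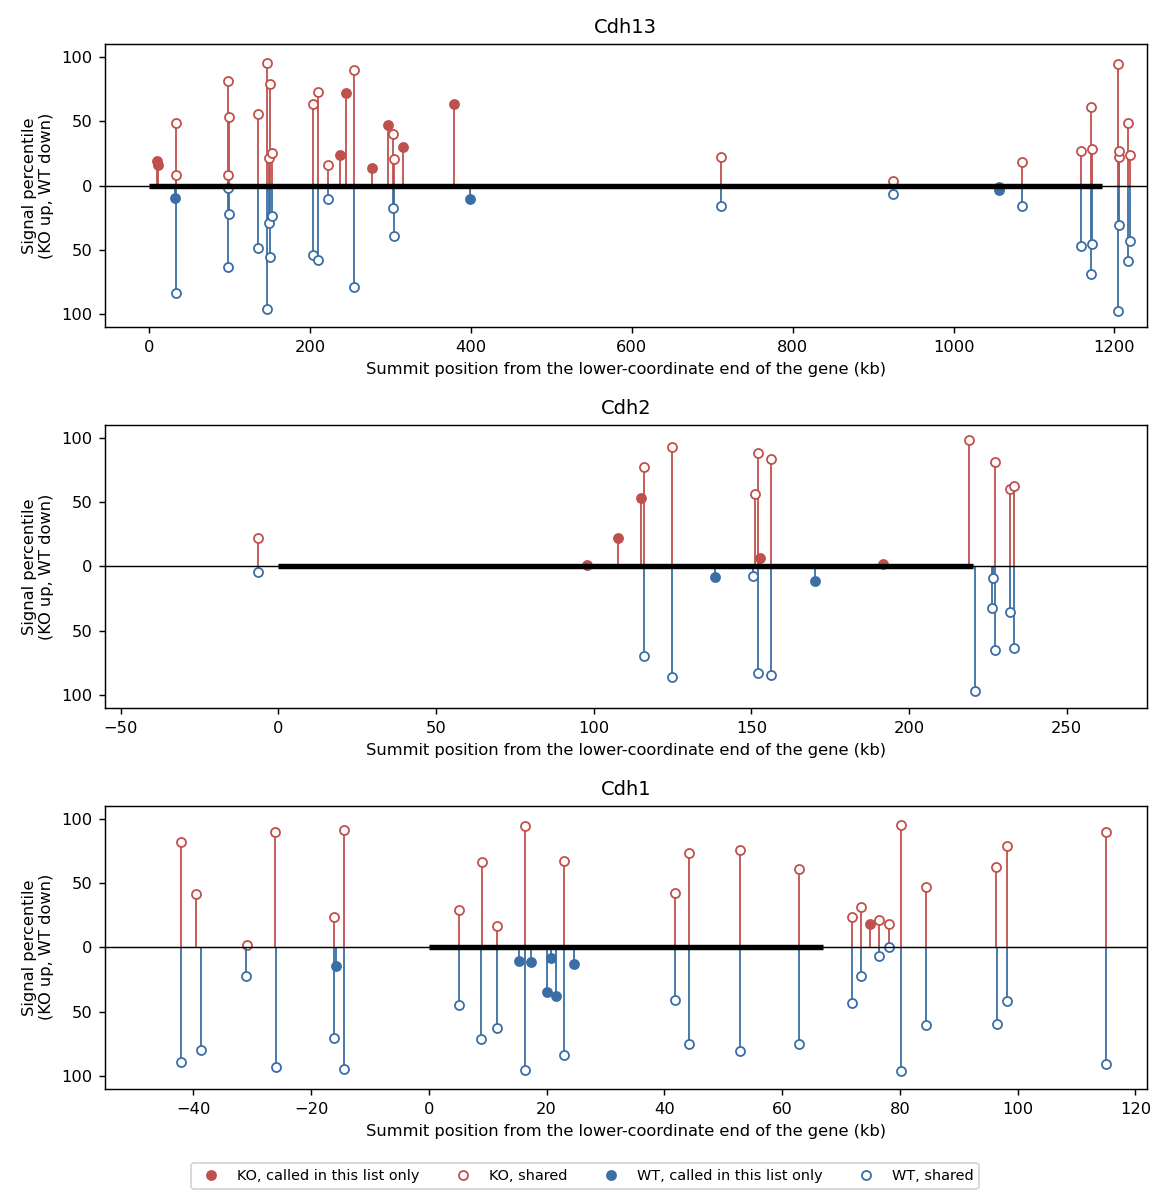
Signal percentile (y axis, KO upward and WT downward) by summit position in kb from the lower-coordinate end of Cdh13, Cdh2 and Cdh1; the black bar is the gene, filled circles are peaks of 1 list only and open circles are shared. Filled KO circles gather in the left part of Cdh13, and 6 weak filled WT circles in the left part of Cdh1.

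The epithelial pair Cdh3 (P-cadherin) and Cdh1 (E-cadherin) lie 46439 bp apart on chromosome 8 and carried many peaks that both genotypes shared. At Cdh1 KO had 25 and WT 31 peaks, and at Cdh3 KO had 17 and WT 21. All but 1 KO peak of the 2 genes overlapped a WT peak, and WT-only peaks numbered 7 at Cdh1 and 4 at Cdh3, of which 1 between the genes was counted for both. The difference of -6 at Cdh1 was reached by 3.84% of all genes and that of -4 at Cdh3 by 10.6%. The surrounding DNA went the same way. Within 1 Mb of the Cdh1 window KO had 232 and WT 251 peaks, of which 24 were KO-only and 47 WT-only. Around the Cdh3 window, in a stretch largely the same, KO had 253 and WT 275 peaks, of which 25 were KO-only and 52 WT-only. The shared peak of highest rank inside Cdh3 stood at percentile 95.6 in KO and 95.9 in WT, with its summit at 106530026 in both lists. Inside Cdh1 the highest stood at 94.0 in KO and 95.0 in WT, with summits at 106619753 and 106619743. These peaks lay inside the genes, and neither end of Cdh1 was under a peak in either list.

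The lower end of Cdh3 was called in WT only. WT had a peak from 106510936 to 106511631 at percentile 51.1 and another from 106511817 to 106512786 at 58.5, and KO had none within 1 kb of that end. The other WT-only peaks of the Cdh3 window stood at 35.6 and 14.3. A shared peak whose KO summit lay 9797 bp below the gene was narrower in KO, 224 bp wide at percentile 30.8, against 1227 bp at 73.3 in WT. Cdh3 lies from 106510852 to 106556911 and Cdh1 from 106603350 to 106670247. In Cdh1 the 6 WT-only peaks inside the gene were weaker, the highest at percentiles of 37.5 and 34.8 and the lowest at 8.08, and none was in the upper 50% of the WT list. The single KO-only peak, from 106678267 to 106678644 at percentile 17.9, lay 8102 bp beyond the gene. The highest peaks of the Cdh1 window, at 95.1 in KO and 96.0 in WT, lay at the end of the neighbouring gene Tango6.

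Cdh5 (VE-cadherin), the junction cadherin of endothelium, carried peaks in these fibroblasts too. KO had 12 and WT 14 peaks, of which 1 was KO-only and 3 WT-only. The highest lay inside the gene, at percentile 84.8 in KO with its summit at 104121957, and at 88.7 in WT with its summit at 104111052. The upper gene end lay under a weak shared peak at percentile 5.97 in KO and 45.0 in WT, and a WT-only peak from 104143770 to 104143924 at 18.5 lay just inside it. The KO-only peak, from 104068452 to 104069001 at percentile 53.3, lay 32832 bp below the gene. The strongest WT-only peaks, at 66.7 and 62.9, lay inside the neighbouring gene Bean1. Within 1 Mb of the window the DNA went the other way from the gene. There KO had 117 and WT 106 peaks, of which 28 were KO-only and 18 WT-only. In 10 of 11 pairs the KO percentile was the lower. Of the 8 other endothelial markers, 1 (Tek) had a gene-end peak, at percentile 18.1 in KO and 39.6 in WT. Their windows held 2 to 21 KO peaks and 3 to 22 WT peaks each, with Kdr at the low end in KO (2 KO and 4 WT peaks) and Egfl7 at the high end (21 KO and 22 WT peaks). Their part in the result at Cdh5 was not tested.

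Cdh4 (R-cadherin), Cdh6 (K-cadherin) and Cdh8, known mainly from nervous tissue and, for Cdh6, kidney, had little accessible chromatin. Cdh4, of 456955 bp, had 6 peaks in each list, all shared. Of these 3 had summits 430.5 to 435.4 kb from its lower end, and 3 lay beyond its upper end in Taf4. The highest, in Taf4, ran from 179916909 to 179917763 at percentile 73.7 in KO and from 179916900 to 179917598 at 77.8 in WT. The KO percentile was the lower in 4 of the 6 pairs, and their differences were uneven. The widest gap was 9.34 in KO against 62.3 in WT, and a pair in the other direction stood at 67.0 in KO and 50.1 in WT. Cdh6 had 1 shared peak inside the gene, at percentile 20.8 in KO and 25.7 in WT. A WT-only peak at 12.8 lay 7532 bp from the start shown above. Cdh8 had 0 peaks in both lists, as 10.7% of all genes did, and the summit nearest to its start was 1356419 bp away in KO and 188055 bp in WT.

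Peaks that overlapped lay at nearly the same place in both genotypes. Across the 94 peaks with exactly 1 partner each, the median distance between summits was 13 bp, against 11 bp over all 75840 such pairs. The KO percentile was the lower in 63 of the 94 (67.0%, against 59.3% of all pairs) and the KO peak the narrower in 60 (63.8%, against 52.4%). The genes differed in this: the KO percentile was lower at 16 of 17 pairs of Cdh3, 18 of 24 of Cdh1 and 10 of 11 of Cdh5, but at 2 of 9 of Cdh2 and 10 of 23 of Cdh13. The 6 pairs in the windows of both Cdh1 and Cdh3 were counted for each gene here, and the KO percentile was lower in all 6. Pairs of 1 gene share their lists and their region and are no replicates.

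**Figure D5:**
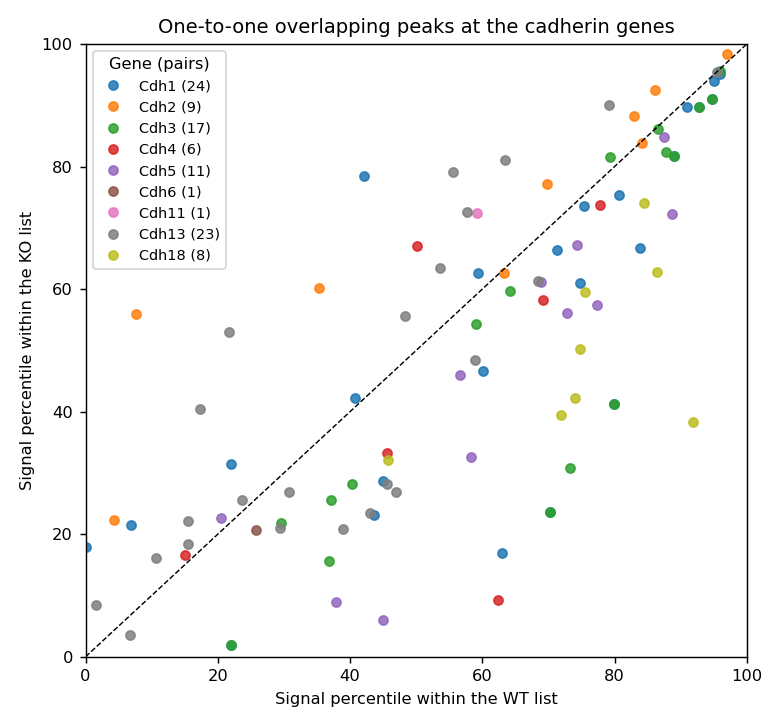
Signal percentile within the KO list (y axis) against that within the WT list (x axis) for peaks with exactly 1 partner at the cadherin genes, coloured by gene with the number of pairs in brackets; the 6 pairs in the windows of both Cdh1 and Cdh3 are drawn for each. The 8 Cdh18 pairs all lie below the dashed line of equal percentiles, and 7 of the 9 Cdh2 pairs lie above it.

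The other type I and type II cadherin genes were mostly without peaks at their ends. Of 9 genes, Cdh24 had a peak within 1 kb of an end in both lists and 8 had none there. An excess of KO-only peaks was found at 0 of the 9 and one of WT-only peaks at 5 (22.9% and 46.6% of all genes). The median difference was -1, against 0 over all genes. Summed over the 9 genes, 2 of 36 KO and 13 of 48 WT peaks were unshared (13.4% and 20.4% over all peaks). Cdh12, Cdh15 and Cdh22 each had 3 WT-only peaks and 0 KO-only ones. Cdh12 lies beside Cdh18, and Cdh9 and Cdh10, also on chromosome 15, had 1 WT-only peak each. Among 33 other members of the superfamily, 13 had an open end in both lists and 20 in neither (56.1% and 40.2% of all genes). WT-only peaks were in excess at 22 of them and KO-only peaks at 4 (46.6% and 22.9% of all genes), and neither at 7. Summed over these genes, 35 of 288 KO peaks and 66 of 326 WT peaks were unshared, with a peak in several windows counted for each. Over all peaks of the lists, 13.4% in KO and 20.4% in WT were unshared. The 2 largest differences in each direction were at the following genes. Unshared peaks at Dsg2, a desmosomal cadherin gene, numbered 6 in KO and 0 in WT, and those at Pcdh7 5 in KO and 0 in WT. Pcdh19 had 0 in KO and 6 in WT, and Cdh26 0 in KO and 5 in WT.

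The catenins tie cadherin tails to actin. Of 18 catenin and junction genes, 12 had a peak within 1 kb of an end in both lists and 5 in neither. Plekha7, which encodes a junction protein that binds p120-catenin, had an end peak of WT alone at percentile 41.9. Of these 18 genes 11 had more WT-only and 5 more KO-only peaks (46.6% and 22.9% of all genes), with a median difference of -2.5 against 0 over all genes. All genes included 10.7% with no peak in either list, so the medians are not a like comparison. Summed over the 18 genes, 32 of 301 KO and 76 of 340 WT peaks were unshared (13.4% and 20.4% over all peaks). An end peak in both lists was found at 56.1% of all genes. Ctnnb1 (beta-catenin) had 0 KO-only and 3 WT-only peaks. Ctnna1 (alpha-catenin) had 5 unshared peaks in KO and 1 in WT, and so had Lima1, which encodes an actin-binding protein. The neural Ctnna2 and the heart-type Ctnna3 each had 0 in KO and 9 in WT.

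Genes for factors that act on cadherin expression differed in direction also among those of like role. Zeb1 and Zeb2, repressors of Cdh1, had 7 and 5 peaks of KO alone and 0 of WT alone each, and the end of Zeb1 was called in KO alone, at percentile 26.5. Grhl2 and Ovol2, which uphold epithelial genes, had 0 KO-only peaks and 7 and 5 WT-only peaks. Other repressors of Cdh1 did not share the direction of the Zeb genes. Snai1 had 2 unshared peaks in KO and 6 in WT, Twist1 0 in KO and 3 in WT, Twist2 2 in KO and 5 in WT, and Snai2 0 in both. Of the 10 factor genes 6 had more WT-only and 2 more KO-only peaks, beside 46.6% and 22.9% of all genes. Of 9 genes for cadherin cleavage and turnover, 8 had an end called in both genotypes (56.1% of all genes), 6 had more WT-only peaks and 3 more KO-only peaks. Ptprm, a receptor phosphatase of cell contacts, had 8 KO-only and 5 WT-only peaks. Adam10, the sheddase that cleaves Cdh1 and Cdh2, had 1 unshared peak in KO and 6 in WT, and Ptpn1, a phosphatase, had 3 in KO and 5 in WT.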

How the data were processed

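ATAC-seq was done on 3 Lap2alpha KO and 3 WT libraries of mouse dermal fibroblasts. Per the submitters' processing notes, Bowtie2 2.5.1, Genrich, deepTools 3.5.1 and build GRCm38 were used; no source used here gives Genrich's version and settings, any Tn5 shift or how libraries were combined. The authors deposited 1 peak list per genotype with a score (ceiling 1000, not used), a signal and a summit position. They also deposited −log10 values of p, used in 1 alternative, and of q, not used. The deposited signal is not scaled between lists, so it was turned into a percentile within its own list.

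Peaks of KO and WT that overlapped by at least 1 bp were called shared. Gene spans, without strand, were those of 21887 RefSeq protein-coding genes. A gene-end peak overlapped the 1 kb on either side of a gene end. Each comparison was a count set beside all peaks or all genes, with no test, and 9 alternatives were tried. Members, lists and the naming rule were chosen with earlier results of these data known. The rule named, per gene, the top peak, gene-end peaks and up to 3 peaks of 1 list only by percentile, and, in the other lists, genes with an end peak in 1 list or the 2 largest differences per direction; marker genes, Ctnnb1, Snai1, Snai2, Twist1, Twist2, Cdh9, Cdh10 and some shared pairs were named beside it after their values were seen, and the comparisons with long genes and with genes of at least 20 WT peaks were added then too. Overlap counts, tested on simulated lists, equalled those of bedtools 2.31.1. Python 3.11.15, numpy 2.4.6, pandas 2.3.3 and matplotlib 3.10.9 were used.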

Additional observations from a re-analysis of the deposited data

How the results depend on the processing

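Counts of KO-only peaks at the 10 genes (22) and WT-only peaks (52) stayed within 1.5 times under most of the 9 alternatives. With a reciprocal overlap of 50% there were 43 KO-only peaks, among upper 50% peaks by signal 5 KO-only and 10 WT-only peaks, and with lists of equal length 33 WT-only peaks. The cause was not tested. The difference at Cdh18 ranged from -34 to -6 (-17 with equal length, -21 with a stricter summit threshold) and that at Cdh11 from 1 to 10, and both kept their sign under all 9 alternatives, as did those at Cdh13 and Cdh2 (1 or more in each) and Cdh3 (-2 or lower). Those at Cdh1, Cdh5 and Cdh6 reached 0 under 1, 1 and 4 alternatives, and that at Cdh4, 0 in the main comparison, was -1 under 3. None of the differences turned from one sign to the other. At Cdh18 and Cdh3, with 0 KO-only peaks, and Cdh11, with 0 WT-only peaks, part of this was fixed beforehand. Smaller windows, nearest gene only, the 1 kb distance and the upper 50% by signal only take peaks away, so they could not turn the sign there. Cdh1 fell in size to -2 without peaks that had one of the other list within 1 kb, and Cdh13 fell to 1 with a window of 100 kb. At Cdh5 it was 0 once peaks nearer to another gene were left out. Cdh11 fell to 1 in the upper 50% by signal and to 2 within the gene span. No paired analysis was possible because each genotype has 1 combined list without replicates, and for the same reason no library could be left out. Read depth is unknown, so its part in peaks called in 1 list only was not tested.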
